A study of Mus musculus with 8 samples.

Results

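The 49 genes described here build or serve the lysosome, and they were taken from a list of gene names. They comprise 17 genes of the proton pump, 21 genes of soluble hydrolases and their cofactors, 8 genes of lysosomal membrane proteins and 3 genes of trafficking complexes. A region of open chromatin, called a peak below, was counted to one of them when it was the nearest protein-coding gene, measured to the gene's span and at most 50000 bp away. Of 57199 peaks in the deposited table, 142 belonged to these genes, and 47 of the 49 genes had at least 1 peak. No peak was assigned to Ctsf, which encodes cathepsin F, or to Vps11, which encodes a subunit of the HOPS tethering complex. A peak was called a promoter peak when it lay within 1000 bp of a gene start, which gave 51 promoter peaks of 44 genes and 91 other peaks, and 107 of the 142 lay inside the gene's span. For 37 genes the start came from RefSeq, and for the other 12 genes either end of the span was used. A promoter peak of those 12 may therefore lie at the far end of the gene. A peak of theirs at a start inside the span would be counted with the other peaks. Peaks at the start of Hexa, at an end of Asah1 and at the start of Sgsh were nearest to a neighbouring gene (Tmem202, Frg1 and Slc26a11) and were therefore not counted here.

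The assay was ATAC-seq, which reads out open chromatin as the places where a transposase can insert sequencing adapters, applied to regulatory T cells (Treg cells) sorted from mouse spleen. The Flcn KO group was 4 libraries of cells in which a Cre recombinase expressed from the Foxp3 locus acts on floxed Flcn alleles (Foxp3Cre Flcn fl/fl). The WT group was 4 libraries of wild-type cells. Both groups came from mixed bone marrow chimeras, in which marrow of different donors rebuilds the blood of a host, and the same gate was used for both: CD45.2+ and CD45.1-, so of one donor, CD4+, and positive for the Foxp3-YFP reporter. The labels give no age, no host and no allele of the WT donor beyond that name, and whether each library came from its own animal is stated only as biological replicates, so the p-values below measure the spread between these libraries.

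The lysosome is the acidic compartment in which cells digest proteins, sugars and lipids. Its acidity comes from the V-ATPase, a rotary pump whose cytosolic V1 sector splits ATP and whose membrane V0 sector moves protons; the hydrolases work inside, and membrane proteins carry ions and digestion products across. Flcn encodes folliculin, a protein of the lysosomal surface that restrains the transcription factors TFEB and TFE3, which bind CLEAR elements, short E-box motifs with the core CACGTG, in promoters of many lysosomal genes.

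The letters of 6 promoters are shown because the text returns to them, and to show where this core lies relative to the accessible regions that were counted. Each is the 250 bases ahead of the gene start, 5′ to 3′ on the gene's strand, from RefSeq on GRCm38.p6, with every CACGTG in capitals. Lamp1 (chr8:13158911-13159160, plus strand) and Mcoln1 (chr8:3500269-3500518, plus strand) encode membrane proteins, Ctsd (chr7:142387828-142388077, minus strand) and Gla (chrX:134601006-134601255, minus strand) encode hydrolases, and Atp6v0b (chr4:117887330-117887579, minus strand) encodes a pump subunit. Npc2 (chr12:84773113-84773362, minus strand), a cholesterol carrier of the lysosome, has no CACGTG in this stretch although its promoter peak had the highest level of all member promoters.
Lamp1: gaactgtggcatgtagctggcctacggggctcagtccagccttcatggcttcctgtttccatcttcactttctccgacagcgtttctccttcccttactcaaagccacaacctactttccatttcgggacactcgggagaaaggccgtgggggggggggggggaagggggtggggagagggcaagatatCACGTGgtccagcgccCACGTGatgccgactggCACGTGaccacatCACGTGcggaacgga
Mcoln1: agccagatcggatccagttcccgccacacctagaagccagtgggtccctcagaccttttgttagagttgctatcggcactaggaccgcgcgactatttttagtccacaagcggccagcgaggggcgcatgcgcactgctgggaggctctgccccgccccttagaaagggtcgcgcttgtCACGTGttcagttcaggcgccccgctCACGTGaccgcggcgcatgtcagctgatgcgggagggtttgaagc
Ctsd: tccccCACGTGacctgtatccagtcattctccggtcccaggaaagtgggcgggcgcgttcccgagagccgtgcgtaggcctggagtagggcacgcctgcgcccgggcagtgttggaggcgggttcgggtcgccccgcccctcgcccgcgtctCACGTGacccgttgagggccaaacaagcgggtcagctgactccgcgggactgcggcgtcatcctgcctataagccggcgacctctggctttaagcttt
Gla: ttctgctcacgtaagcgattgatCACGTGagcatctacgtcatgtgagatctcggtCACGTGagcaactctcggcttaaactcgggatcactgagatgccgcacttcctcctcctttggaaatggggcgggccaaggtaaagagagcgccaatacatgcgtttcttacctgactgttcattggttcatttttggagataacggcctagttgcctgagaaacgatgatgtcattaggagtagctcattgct
Atp6v0b: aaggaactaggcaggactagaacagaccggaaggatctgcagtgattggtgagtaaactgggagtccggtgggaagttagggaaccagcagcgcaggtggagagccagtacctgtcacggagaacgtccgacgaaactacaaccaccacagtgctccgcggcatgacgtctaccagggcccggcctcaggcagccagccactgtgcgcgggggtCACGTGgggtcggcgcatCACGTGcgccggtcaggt
Npc2: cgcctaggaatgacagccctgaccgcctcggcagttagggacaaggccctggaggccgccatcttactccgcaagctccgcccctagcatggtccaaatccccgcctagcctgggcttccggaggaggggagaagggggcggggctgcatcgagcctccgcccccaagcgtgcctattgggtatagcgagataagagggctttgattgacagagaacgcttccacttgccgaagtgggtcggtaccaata
Lamp1 holds 4 copies, Mcoln1, Ctsd, Gla and Atp6v0b hold 2 copies each, and Npc2 holds 0. All 250 bases lie inside the gene's promoter peak for Mcoln1, Ctsd, Gla and Npc2, against 181 bases for Lamp1 and 242 bases for Atp6v0b. In the RefSeq window of 250 bases before to 50 after the start, read on both strands, 17 of the 37 member genes with a window held CACGTG (45.9%), against 8.09% of all 27025 genes. The longer TCACGTG, which contains that core, was found in 15 of 37 (40.5%, against 4.29% of all genes), and the related TCACATG in 7 of 37 (18.9%, against 4.50%). At least 2 copies of CACGTG were found in 8 of 37 (21.6%, against 0.681% of all genes). The 27025 genes outnumber the 21887 protein-coding genes used to assign peaks, so they include genes of other kinds, whereas every member is protein-coding. Shares among protein-coding genes alone were not computed. A match describes the reference letters only and is not a measured binding site. Whether this motif helped to choose the genes of the list is not known, so the shares are described only and were not tested.

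Counts in peaks totalled 2723344 to 5111728 per Flcn KO library and 3986331 to 4914976 per WT library. Of 6 Treg marker genes, 5 had peaks, at promoters or elsewhere, that held counts in both groups. The summed level of these peaks was 1226 to 1451 CPM (counts scaled to the library's effective total) in Flcn KO and 1176 to 1285 CPM in WT. Among markers of other cells, genes of CD8 T and NK cells summed to 395.7 to 488.1 CPM in Flcn KO and 364.9 to 402.3 CPM in WT. Erythroid genes summed to 55.1 to 71.1 CPM in every Flcn KO library, above the 41.3 to 47.3 CPM in WT, and what part such cells play in the results below was not tested. In a pool of sorted cells, a difference in the share of cells with an open site and a difference in opening per cell cannot be told apart. At the targeted gene, the promoter peaks of Flcn were present in both groups, with a log2 fold change of -0.28 and of -0.57 (adjusted p = 0.679 and 0.463, edgeR's quasi-likelihood test with Benjamini-Hochberg adjustment). A pair of weak peaks inside Flcn, below the count filter, held 16, 4, 8 and 16 counts at chr11:59798675-59798950 and 2, 9, 18 and 21 counts at chr11:59799302-59799641 in the Flcn KO libraries, against 0, 2, 0 and 0 and then 0, 0, 2 and 0 in the WT libraries. The labels do not say which exons are floxed, so these counts are no check of the deletion.

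At the lysosomal genes, no peak passed the test in Flcn KO cells. Of the 142 peaks, 123 held enough counts to be tested (50 promoter and 73 other peaks), and 0 of 123 passed an adjusted p of 0.05 in either direction, by edgeR, by DESeq2 or by limma-voom. Over all tested peaks edgeR called 2.37%, DESeq2 2.34% and limma-voom 1.71%; by edgeR this was 0.526% of promoter peaks and 2.98% of other peaks, rates that give few calls among 123 peaks. At an unadjusted p under 0.05, 7 member peaks had a higher mean in Flcn KO and 0 had a lower one, against 6.87% of all tested peaks higher and 5.99% lower. DESeq2 gave 7 and 0 at the same unadjusted threshold, and limma-voom gave 8 and 0. The 123 log2 fold changes had a median of -0.01 (0.00 over all tested peaks), with 59 above 0 and 64 below, and ranged from -0.66 at a weak peak inside Atp6v0a1 to 1.07 at a peak of Psap. Libraries of the groups did not overlap at 3 of the 123 member peaks (2.44%), against 7.59% of all tested peaks.

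Promoters of lysosomal genes differed little between Flcn KO and WT cells, and none passed the test. Their 50 tested promoter peaks had a median log2 fold change of -0.02, against -0.04 over all promoter peaks, and 22 lay above 0. Summed over all member promoters, the level was 1777, 1970, 1774 and 1948 CPM in the Flcn KO libraries and 1880, 1776, 1903 and 1878 CPM in the WT libraries. The means were 1867 ± 107 CPM in Flcn KO and 1859 ± 56.4 CPM in WT (SD, n = 4 each), a difference of 0.445% that is smaller than the spread between libraries. The 95% interval of the change excluded a 2-fold difference in either direction at 40 of 50 promoters and a 1.5-fold difference at 34. The 26 promoters above 25 CPM had log2 changes between -0.28 and 0.27; a 2-fold difference was excluded at all 26 and a 1.5-fold difference at 25 of them.

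**Figure D1:**
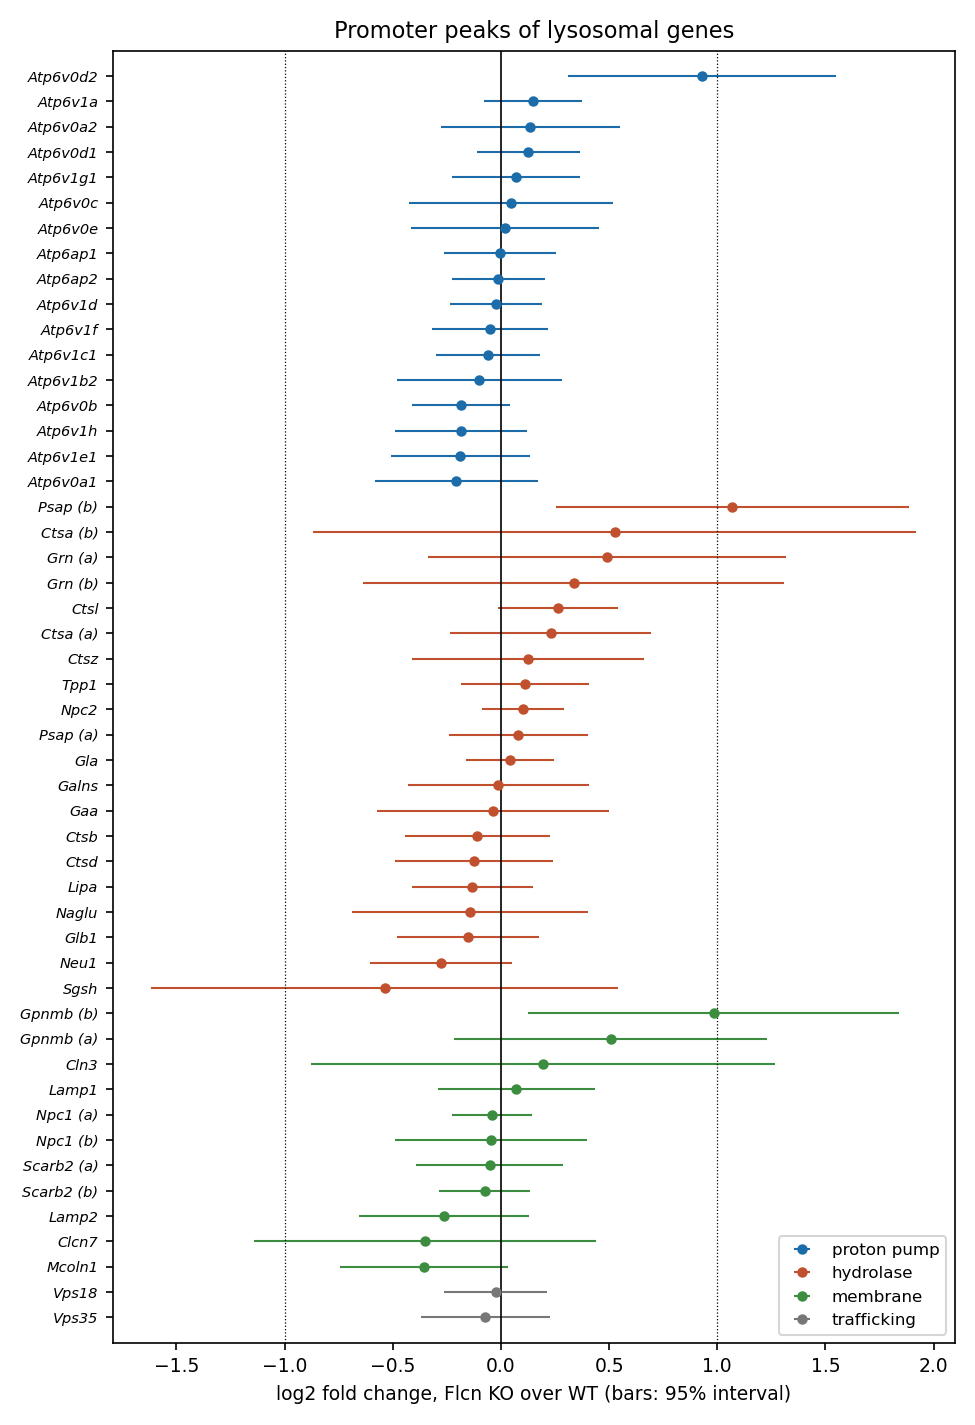
Log2 fold change of each tested promoter peak, Flcn KO over WT (points), with its 95% interval (bars), coloured by the role of the gene; (a) and (b) mark 2 promoter peaks of one gene, and dotted lines mark a 2-fold difference. Most points lie close to 0, and the widest bars belong to weak peaks, with those of Ctsa, Sgsh and Cln3 the widest.

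At the proton pump, no promoter passed the test. All 17 pump genes had a tested promoter peak, with a median log2 fold change of -0.01, and 16 of the 17 intervals excluded a 2-fold difference. The exception was Atp6v0d2, described further on with its other peaks. In the V0 sector, the promoter of Atp6v0b, which encodes a proteolipid subunit of the ring that carries protons, held 55.5, 56.1, 55.7 and 60.2 CPM in Flcn KO and 65.6, 64.7, 67.3 and 60.3 CPM in WT. Every Flcn KO library lay below every WT library, though the highest Flcn KO value and the lowest WT value nearly met. The log2 fold change was -0.18 ± 0.11 (SE), with an adjusted p of 0.532 by edgeR's quasi-likelihood test with Benjamini-Hochberg adjustment. Atp6v0a1, an isoform of the large V0 subunit, had 14.9, 19.8, 20.4 and 22.9 CPM in Flcn KO and 23.7, 19.6, 21.4 and 24.1 CPM in WT at its promoter (log2 fold change -0.21 ± 0.19, or -0.085 without Flcn KO replicate 1), and the groups overlapped. The proteolipid gene Atp6v0c had a log2 fold change of 0.05, Atp6v0d1, which encodes the widely expressed d1 isoform, 0.13, and Atp6v0e 0.02.

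In the V1 sector all 8 promoter intervals excluded a 2-fold difference. Atp6v1a encodes the catalytic subunit that splits ATP, and its promoter held 72.0, 93.0, 85.0 and 94.5 CPM in Flcn KO against 72.7, 67.4, 88.7 and 81.2 CPM in WT (log2 fold change 0.15 ± 0.11). At Atp6v1d, part of the central rotor, the values were 86.4, 103.9, 77.6 and 90.7 CPM in Flcn KO and 92.2, 87.4, 96.4 and 88.1 CPM in WT. The most negative V1 promoter, that of the stalk subunit gene Atp6v1e1, held 27.6, 29.7, 28.1 and 26.7 CPM in Flcn KO and 33.4, 25.6, 38.3 and 30.5 CPM in WT (log2 fold change -0.19 ± 0.16, or -0.093 without WT replicate 3 and -0.28 without WT replicate 2). At each of these 3 promoters the groups overlapped. The means of the accessory subunit genes nearly coincided: Atp6ap1 averaged 49.2 ± 7.49 CPM in Flcn KO and 49.3 ± 2.42 CPM in WT, and Atp6ap2, also known as the prorenin receptor, averaged 111.4 ± 16.2 CPM in Flcn KO and 112.0 ± 9.94 CPM in WT (SD, n = 4 each).

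Among hydrolases, the 20 promoter peaks had a median log2 fold change of 0.06 and ranged from -0.54 to 1.07. Cathepsin L, a cysteine protease of the lysosome, is encoded by Ctsl, whose promoter held 52.8, 70.3, 73.1 and 98.7 CPM in Flcn KO and 54.4, 56.2, 65.8 and 66.4 CPM in WT. Its lowest library was Flcn KO and 3 Flcn KO libraries lay above all WT libraries, so the groups overlapped (log2 fold change 0.27 ± 0.14, adjusted p = 0.422 by edgeR's quasi-likelihood test with Benjamini-Hochberg adjustment). The Ctsl change was 0.11 without Flcn KO replicate 4 and 0.40 without Flcn KO replicate 1. Cathepsin D, an aspartic protease, had promoter values of 20.7, 28.6, 16.9 and 24.0 CPM in Flcn KO and 24.1, 23.6, 22.9 and 27.3 CPM in WT at Ctsd (log2 fold change -0.13 ± 0.18, or -0.0095 without Flcn KO replicate 3 and -0.26 without Flcn KO replicate 2). A weak promoter peak of Ctsa, the gene of the protective protein that stabilises 2 other hydrolases, had the most positive change of the cathepsins on very few counts, with 2.74, 5.34, 0.497 and 1.52 CPM in Flcn KO and 0, 3.12, 3.06 and 0.984 CPM in WT. Its log2 fold change of 0.53 had a 95% interval from -0.87 to 1.92, and it was -0.10 without Flcn KO replicate 2 and 0.091 without WT replicate 1. The protease genes Tpp1 and Ctsz had 0.11 and 0.13 at their promoters.

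The promoter of Gla, the gene of alpha-galactosidase A, was the most accessible of the glycosidases and sulfatases, with 113.4, 143.2, 131.3 and 157.0 CPM in Flcn KO and 121.2, 130.7, 145.8 and 129.6 CPM in WT. Its groups overlapped, and the log2 change of 0.04 had a 95% interval from -0.16 to 0.24. Sgsh, which encodes a heparan sulfate sulfatase, had a weak peak with 2.35, 2.67, 2.98 and 0 CPM in Flcn KO and 2.28, 4.02, 3.06 and 2.95 CPM in WT. Of the 7 promoter peaks of glycosidases and sulfatases, 1 lay above 0, with a median of -0.14. Neu1, the gene of the lysosomal sialidase, had a log2 fold change of -0.28, Glb1, the gene of beta-galactosidase, -0.15, and Gaa, the gene of the acid glucosidase that breaks down glycogen, -0.04. Among lipid hydrolases and cofactors, Npc2 had 144.7, 168.9, 138.2 and 156.2 CPM in Flcn KO and 150.7, 129.4, 132.6 and 153.0 CPM in WT at its promoter (log2 fold change 0.10 ± 0.09). Lipa, the gene of lysosomal acid lipase, had 34.8, 43.8, 34.3 and 40.4 CPM in Flcn KO and 43.2, 36.6, 44.4 and 43.3 CPM in WT (log2 fold change -0.13 ± 0.14).

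For the membrane proteins, 11 tested promoter peaks had a median log2 fold change of -0.05. Lamp1 encodes a heavily glycosylated protein that lines the lysosomal membrane, and its promoter peak (chr8:13158980-13159678), with the 4 cores printed above, held 23.9, 28.3, 19.9 and 33.5 CPM in Flcn KO and 28.6, 20.1, 24.99 and 25.6 CPM in WT. The groups overlapped fully, with a log2 fold change of 0.07 ± 0.18 and an adjusted p of 0.922 by edgeR's quasi-likelihood test with Benjamini-Hochberg adjustment. Mcoln1, the gene of the calcium release channel TRPML1, had the most negative membrane promoter: 21.3, 14.4, 15.9 and 18.3 CPM in Flcn KO and 24.5, 18.3, 20.9 and 26.1 CPM in WT. Here 3 of 4 Flcn KO libraries lay below or level with the lowest WT library, and the log2 fold change of -0.35 ± 0.19 did not pass (adjusted p = 0.454, edgeR's quasi-likelihood test, Benjamini-Hochberg). Npc1, which exports cholesterol from the lysosome, had a strong promoter peak with 137.8, 131.7, 118.6 and 132.6 CPM in Flcn KO and 138.7, 141.0, 129.5 and 126.9 CPM in WT. The log2 fold change of -0.04 had a 95% interval from -0.23 to 0.14. Of the other membrane genes, Scarb2 had -0.07, Lamp2, the partner of Lamp1 in the membrane, -0.26, and the weak promoter of Clcn7 -0.35 on the log2 scale.

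The trafficking genes followed the same pattern. Vps18, a core subunit of the HOPS complex that tethers endosomes to lysosomes, averaged 62.4 ± 7.57 CPM in Flcn KO and 63.4 ± 5.63 CPM in WT at its promoter. Vps35, part of the retromer that retrieves receptors from endosomes, averaged 42.2 ± 7.60 CPM in Flcn KO and 44.2 ± 7.59 CPM in WT (SD, n = 4 each). Their log2 fold changes, -0.02 and -0.07, were smaller than their standard errors of 0.12 and 0.15.

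The 7 peaks with an unadjusted p under 0.05 belonged to 4 genes. Atp6v0d2 encodes the d2 isoform of a V0 subunit, best known from osteoclasts and macrophages, and it had 9 peaks, all tested, with 8 of the 9 changes above 0. At the peak 693 bp from one end of the gene (chr4:19923259-19923571) the Flcn KO libraries held 10.2, 13.4, 27.3 and 20.6 CPM and the WT libraries 6.23, 14.7, 10.7 and 5.41 CPM. Flcn KO libraries 3 and 4 lay above every WT library, and libraries 1 and 2 lay within the WT range. The log2 fold change was 0.93 ± 0.30 with an adjusted p of 0.115 by edgeR's quasi-likelihood test with Benjamini-Hochberg adjustment, the lowest of all member peaks. This peak passed when Flcn KO replicate 1 was left out (log2 fold change 1.14, adjusted p = 0.0078, edgeR, Benjamini-Hochberg) and when WT replicate 2 was left out (1.25, adjusted p = 0.034), and it did not pass in the other 6 fits that left out a library.

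A neighbouring peak 2741 bp outside the gene (chr4:19925307-19925494) had 7.82, 9.08, 12.9 and 14.5 CPM in Flcn KO and 3.94, 7.14, 7.90 and 5.66 CPM in WT. Only the lowest Flcn KO library fell inside the WT range there (log2 fold change 0.83 ± 0.29, adjusted p = 0.143 by edgeR's quasi-likelihood test with Benjamini-Hochberg adjustment). The strongest Atp6v0d2 peak, inside the gene (chr4:19895176-19896021), had 91.1, 122.4, 141.2 and 125.7 CPM in Flcn KO and 96.3, 93.7, 109.1 and 103.8 CPM in WT. Library 1 was the lowest of all 8 and the other 3 Flcn KO libraries lay above WT; the log2 fold change was 0.25 ± 0.11 (adjusted p = 0.300), and without Flcn KO replicate 1 it was 0.37 with an adjusted p of 0.023 by edgeR's quasi-likelihood test with Benjamini-Hochberg adjustment.

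Gpnmb encodes a membrane glycoprotein, best known from macrophages and melanocytes, and 6 of its 7 tested peaks had a change above 0. The peak 422 bp from its start (chr6:49036940-49037261) held 10.9, 3.74, 12.4 and 6.10 CPM in Flcn KO and 2.49, 8.92, 4.08 and 1.48 CPM in WT. The groups overlapped through WT replicate 2 and Flcn KO replicate 2, with a log2 fold change of 0.98 ± 0.42 and an adjusted p of 0.290 by edgeR's quasi-likelihood test with Benjamini-Hochberg adjustment. Without WT replicate 2 the change was 1.65 and passed (adjusted p = 0.041, edgeR's quasi-likelihood test, Benjamini-Hochberg). Of 8 myeloid marker genes, 4 had peaks, which summed to 44.6 to 57.9 CPM in Flcn KO and 53.1 to 73.1 CPM in WT, and Csf1r, Lyz2, Adgre1 and Fcgr1 had no assigned peak; their part in these peaks was not tested.

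Asah1 encodes acid ceramidase, which splits ceramide. Its strong peak inside the gene (chr8:41374425-41374989) held 136.5, 129.3, 123.1 and 135.3 CPM in Flcn KO and 106.7, 112.2, 109.9 and 111.9 CPM in WT. The groups did not overlap, and both were tight, at 131.0 ± 6.16 CPM in Flcn KO and 110.2 ± 2.54 CPM in WT (SD, n = 4 each). The log2 fold change was 0.25 ± 0.09, with a 95% interval from 0.06 to 0.44 and an adjusted p of 0.177 by edgeR's quasi-likelihood test with Benjamini-Hochberg adjustment. Over the 17 alternative analyses it stayed between 0.23 and 0.28. No start of Asah1 was listed and the ends of its span were used instead. Whether this peak lies at a start of the gene is therefore not known, and it is counted below with the peaks away from promoters.

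Psap encodes prosaposin, the precursor of the saposins that present sphingolipids to their hydrolases. Its peak at a second listed start (chr10:60284843-60285241) held 7.82, 5.08, 5.97 and 3.81 CPM in Flcn KO and 3.32, 4.02, 1.02 and 2.46 CPM in WT. A further peak inside the gene (chr10:60290020-60290490) held 6.06, 5.88, 3.48 and 5.33 CPM in Flcn KO and 0.830, 4.02, 2.04 and 3.44 CPM in WT. In both, 1 library of each group crossed the other's range. The log2 fold changes were 1.07 ± 0.40 and 1.01 ± 0.43, with adjusted p-values of 0.191 and 0.281 by edgeR's quasi-likelihood test with Benjamini-Hochberg adjustment. The stronger promoter peak of Psap had a log2 fold change of 0.08, with a 95% interval from -0.24 to 0.40.

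**Figure D2:**
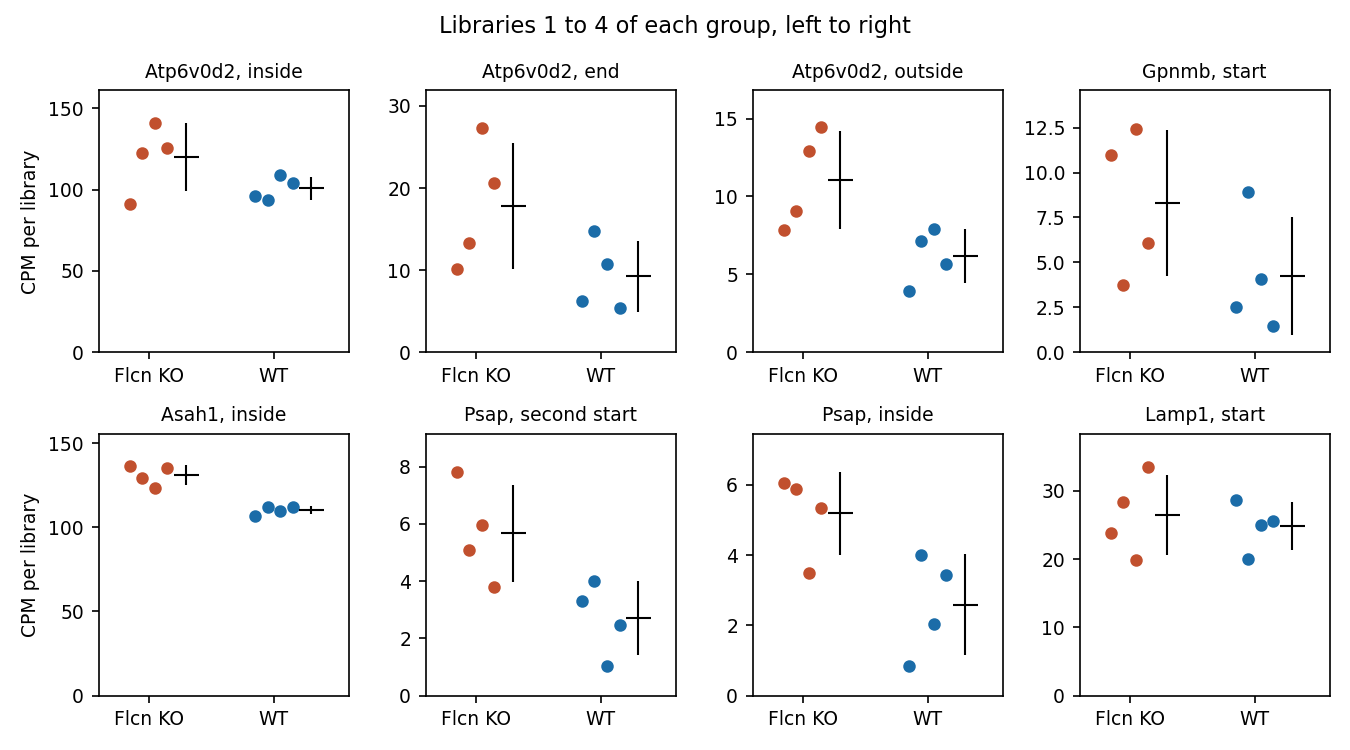
CPM in each library at the 7 member peaks with an unadjusted p under 0.05 and at the Lamp1 promoter, with Flcn KO libraries 1 to 4 left of WT libraries 1 to 4 and the mean ± SD in black. The groups are separate only at the Asah1 peak, and at the Lamp1 promoter they overlap fully.

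Away from promoters, the 73 tested peaks had a median log2 fold change of 0.02, against 0.03 over all other peaks, with 37 above 0. The median was 0.12 for 18 peaks of the pump, -0.01 for 33 peaks of hydrolases and 0.02 for 21 peaks of membrane genes. Summed over all member peaks outside promoters, the level was 1149, 1102, 1215 and 1155 CPM in Flcn KO and 1097, 1105, 1074 and 1048 CPM in WT. The means were 1156 ± 46.3 CPM in Flcn KO and 1081 ± 25.6 CPM in WT (SD, n = 4 each), and Flcn KO library 2 lay within the WT range. Strong peaks weigh most in these sums, among them the Asah1 peak and the strongest Atp6v0d2 peak described above. No sum over all peaks away from promoters was computed beside them. Besides Asah1, a peak inside Ctss, the gene of cathepsin S, had every Flcn KO library (5.87, 6.41, 5.47 and 9.14 CPM) above every WT library (5.40, 4.02, 4.59 and 2.95 CPM), with an adjusted p of 0.446 by edgeR's quasi-likelihood test with Benjamini-Hochberg adjustment. A weak peak inside Lamp1 (chr8:13162010-13162169), below the count filter and named here after its values were seen, held 3.13, 2.94, 3.48 and 2.29 CPM in Flcn KO and 1.87, 1.34, 1.53 and 0.492 CPM in WT.

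**Figure D3:**
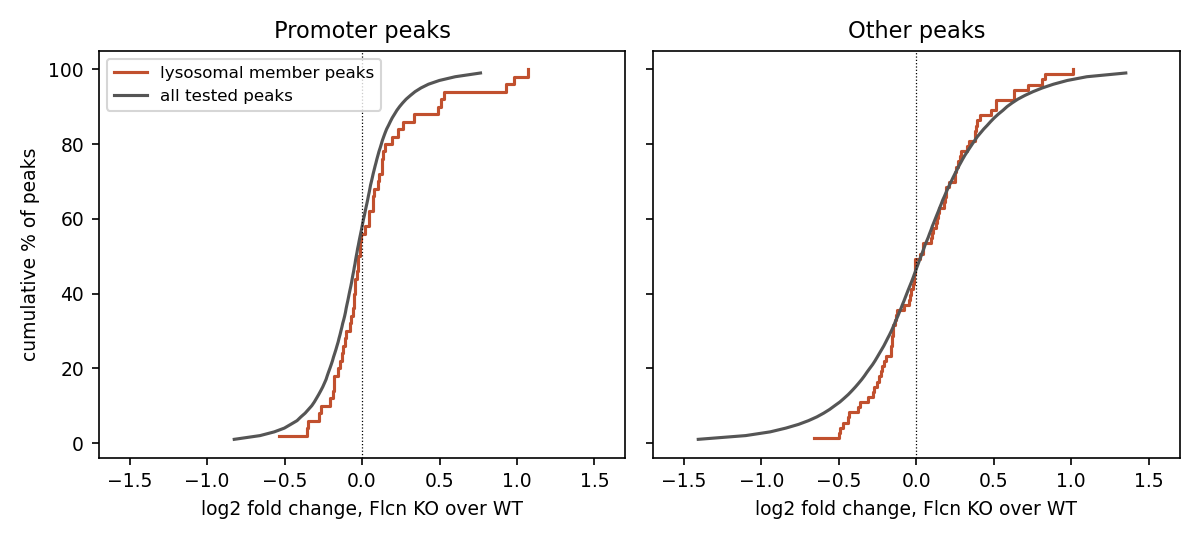
Cumulative share of peaks (y axis, percent) by log2 fold change, Flcn KO over WT (x axis), for lysosomal member peaks and for all tested peaks, with promoter peaks on the left and other peaks on the right. The curves of the members follow those of all peaks, with medians of -0.02 and -0.04 at promoters and 0.02 and 0.03 elsewhere.

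When the counts of all peaks of a gene were summed, 47 member genes were tested and 0 were called, against 250 of 13493 genes (1.85%). At an unadjusted p under 0.05, 5 member genes had a higher sum in Flcn KO (Asah1, Gpnmb, Atp6v0d2, Ctsl and Psap) and 1 had a lower sum (Mcoln1), against 12.7% of all genes in either direction. Mcoln1 summed to 38.8, 26.6, 30.7 and 31.4 CPM in Flcn KO and 42.6, 44.9, 38.0 and 40.7 CPM in WT. Only Flcn KO library 1 reached the WT range, and the log2 fold change was -0.37 ± 0.14 with an adjusted p of 0.201 by edgeR's quasi-likelihood test with Benjamini-Hochberg adjustment. Without Flcn KO replicate 1, Mcoln1 (-0.50, adjusted p = 0.046), Ctsl (0.41, adjusted p = 0.024) and Atp6v0d2 (0.33, adjusted p = 0.013) passed in edgeR's quasi-likelihood test with Benjamini-Hochberg adjustment. The interval of the summed change excluded a 2-fold difference for 44 of the 47 genes and a 1.5-fold difference for 39.

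Per length, the levels of member promoters spanned a wide range. Npc2 had the highest mean, 251.6 CPM per kb of peak, followed by Npc1 (245.1), Atp6ap2 (207.3), Gla (186.9), Atp6v0b (152.1) and Scarb2 (152.0), the gene of the membrane receptor LIMP-2. The lowest were Psap at its second start (10.5), Sgsh (9.65) and Cln3, the gene of the membrane protein battenin (7.20). In all 49 neighbouring pairs of this order the ranges over the libraries overlapped. Sorting by mean puts similar promoters side by side, and all were read in the same libraries. The overlap therefore does not decide whether neighbours differ, which was not tested. Lamp1 (36.6), Mcoln1 (34.8) and Ctsd (41.8) lay below the median of all promoter peaks, 46.0 CPM per kb, and 26 of the 50 member promoters lay above it.

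**Figure D4:**
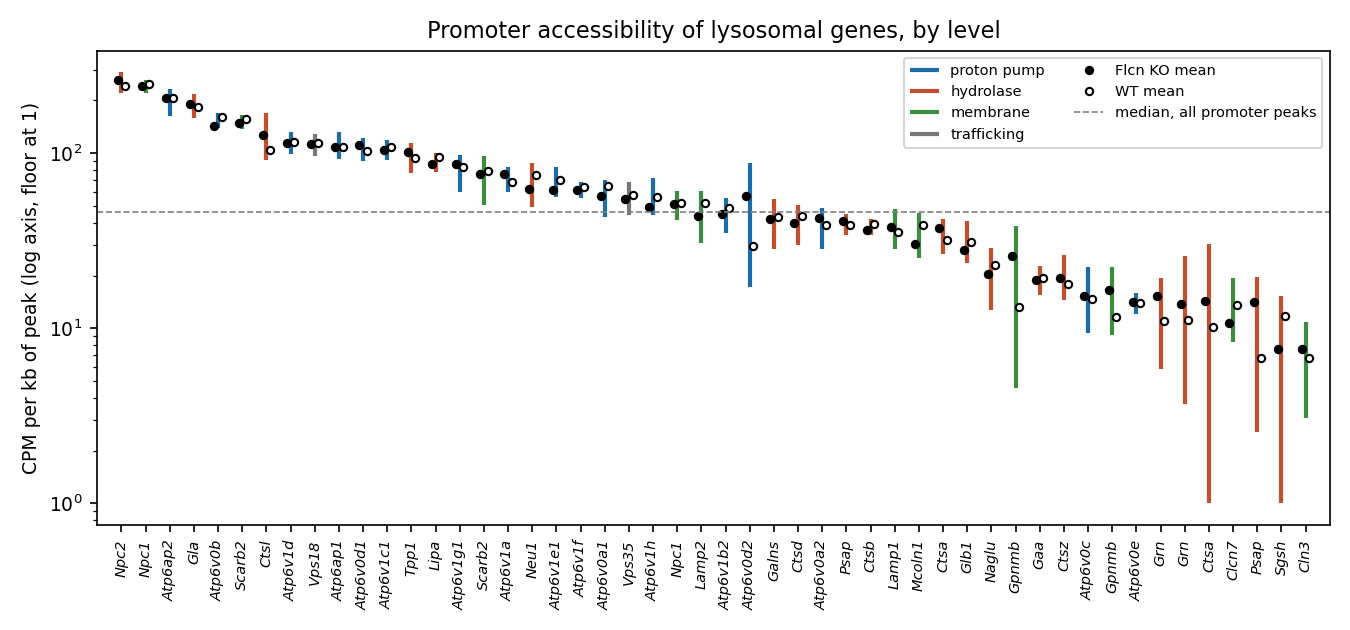
Level of each tested member promoter in CPM per kb of peak (log axis), ordered from highest to lowest, with Flcn KO means filled, WT means open and bars from the lowest to the highest of the 8 libraries; bars of the 2 peaks with a library at 0 are drawn down to 1. The levels run from 251.6 for Npc2 to 7.20 for Cln3, and the means of the groups lie close together at most promoters.

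Promoters with and without the E-box core had overlapping ranges of change. The 13 tested promoter peaks over a RefSeq window with CACGTG had a median log2 fold change of -0.04 and a range of -0.35 to 0.27. The 18 over a window without it had a median of -0.01 and a range of -0.28 to 0.51. Lamp1, with 4 cores, had 0.07, and Gla, with 2 cores, had 0.04. Ctsd, Atp6v0b, Mcoln1 and the weak promoter of Clcn7, also with 2, had -0.13, -0.18, -0.35 and -0.35. Npc2, with 0, had 0.10.

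**Figure D5:**
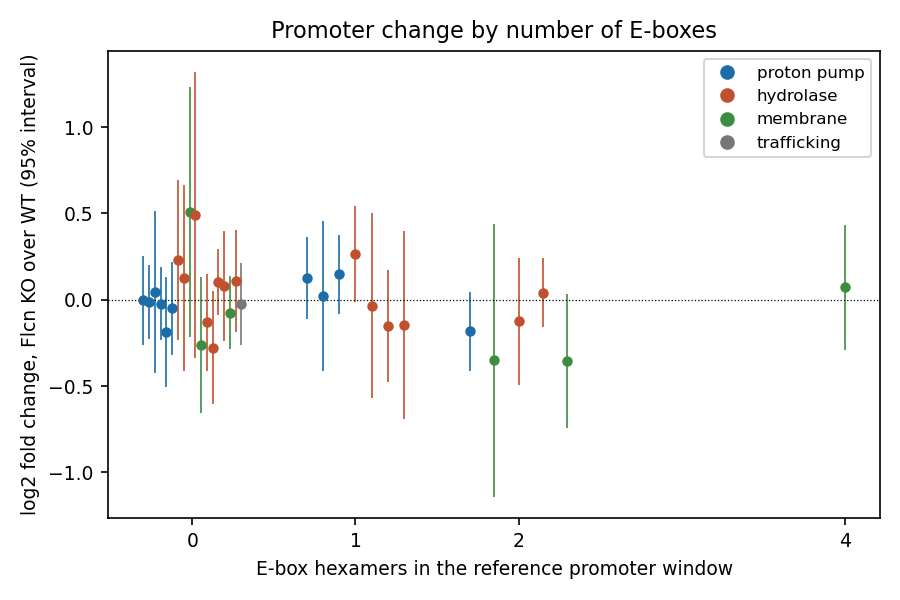
Log2 fold change of member promoter peaks, Flcn KO over WT (y axis, bars give the 95% interval), by the number of E-box hexamers in the reference window under the peak (x axis), coloured by role. Points lie on both sides of 0 with 0, with 1 and with 2 hexamers, though with 2 only Gla lies above 0. The single promoter with 4, that of Lamp1, lies at 0.07.

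Further lysosomal genes outside these 49 were read in the same fit, from a list of 76 genes of which 65 had a peak. Of their 209 tested peaks, 9 rose and 2 fell in Flcn KO, all of them among the 148 away from promoters, and 0 of 61 promoter peaks passed. Over all tested peaks 2.37% were called, as were 2.98% of peaks away from promoters and 0.526% of promoter peaks. The absence of calls at 61 promoters is therefore near the background. The calls at the 148 peaks away from promoters were a larger share than the background. The list was chosen with earlier results known, so that excess was not tested. The peak with the lowest adjusted p lay inside Ostm1 (chr10:42698986-42699463), which encodes the partner of the chloride-proton exchanger made by the member gene Clcn7. It held 96.2, 97.3, 111.9 and 109.0 CPM in Flcn KO and 62.9, 58.4, 67.3 and 60.5 CPM in WT, and the groups did not overlap (log2 fold change 0.73 ± 0.10, adjusted p = 2.3e-05 by edgeR's quasi-likelihood test with Benjamini-Hochberg adjustment). Tpcn1, the gene of an endolysosomal ion channel, rose at an intragenic peak with 18.6, 17.6, 18.4 and 21.3 CPM in Flcn KO and 7.89, 10.7, 6.12 and 11.3 CPM in WT (log2 fold change 1.07 ± 0.23). Idua, the gene of a glycosaminoglycan hydrolase, fell at an intragenic peak with 30.1, 32.1, 31.3 and 32.0 CPM in Flcn KO and 46.1, 51.1, 42.8 and 46.2 CPM in WT (log2 fold change -0.57 ± 0.14). The other 7 peaks that rose were nearest to Arl8b, Galc, Atp6v1g3, Gnptab, Rab7, Scpep1 and Tmem192, and the other peak that fell lay in Wdr7. Those of Arl8b, Rab7 and Scpep1 were weak, with means of 6.86, 4.19 and 4.92 CPM in Flcn KO and 1.65, 0.893 and 1.31 CPM in WT. At the Tmem192 peak the libraries of the groups overlapped. The promoter peak of Arl8b had a log2 fold change of -0.38 ± 0.15 and did not pass.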

How the data were processed

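The 8 libraries share a table of unnormalized read counts over one set of peaks, as the authors deposited it. Tools named in the submitters' processing notes, without roles, are MACS2 2.1.1, BWA 0.7.16, Picard 2.9.4, bedtools 2.25.0, SAMtools 1.9 and Trimmomatic 0.36, with the mm10 build; how duplicates were handled and how the peak set was made is not stated there. In the deposited counts 88.7 to 92.7% of values per library are even, so both mates of a pair may have been counted and the depth in fragments is lower than the counts. Peaks were assigned to the nearest protein-coding gene of RefSeq (GRCm38.p6) within 50000 bp, with start positions shifted by 1 to be 1-based. All peaks were fitted together in edgeR 4.0.16 (R 4.3.3; TMM scaling, filterByExpr with a minimum count of 10, robust quasi-likelihood test), with Benjamini-Hochberg adjustment over 47859 tested peaks and calls at an adjusted p under 0.05. CPM values are TMM-scaled, ± beside a log2 fold change is its SE, and 95% intervals use the fit's degrees of freedom. The scripts were checked on simulated data. Alternatives were DESeq2 1.42.0, limma-voom (limma 3.58.1), other scalings and filters, a replicate block and leaving out each library. Peaks given by library were those with an unadjusted p under 0.05 and, in each of 8 functional lists, the promoter peaks with the highest mean and with the most positive and most negative change; Lamp1, Ctss, Flcn and the further lysosomal genes are given beside them. The members and lists were chosen with earlier results of these data known.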

Additional observations from a re-analysis of the deposited data

Results flagged for a closer look

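Of 50 groups of 4 libraries examined at the peaks given by library, 2 had a library set apart from the other 3, and chance alone flags about 1 in 20 groups. At the Atp6v0b promoter, Flcn KO replicate 4 had 60.2 CPM, above the 55.5 to 56.1 CPM of the other Flcn KO libraries. At the Lipa promoter, WT replicate 2 had 36.6 CPM, below the 43.2 to 44.4 CPM of the other WT libraries.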

How the results depend on the processing

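Of 416 values of the 25 peaks given by rule under 17 alternative analyses, 18 had the opposite sign and 5 passed the test. Replicate numbers were not treated as pairing the libraries (same-number correlations of deviations 0.08, -0.05, 0.06 and 0.05); with the replicate block, 1 member peak was called, at Atp6v0d2 (log2 fold change 0.92, adjusted p = 0.034, edgeR, Benjamini-Hochberg), beside 736 peaks higher and 639 lower over all, and 0 member genes. Leaving out 1 library gave 420 to 863 peaks called higher and 217 to 934 lower over all peaks, against 644 and 489 with all 8, 0 to 2 member peaks higher, 0 to 2 member genes higher and 0 to 1 lower. The stricter filter called 282 peaks lower. The median of member peaks outside promoters was 0.098 with no filter, 0.101 with the stricter one and 0.022 to 0.086 without 1 library; the cause was not tested. Some values changed sign without 1 library, most of them near 0: Atp6ap1 (-0.11 to 0.063), Atp6ap2 (-0.070 to 0.090), Atp6v1d (-0.098 to 0.040), Ctsa (-0.10 to 0.96, 0.53 with all 8), Gla (-0.027 to 0.12), Vps18 (-0.076 to 0.045) and Vps35 (-0.19 to 0.020). Atp6ap1 also changed sign with loess offsets (0.0018) and the stricter filter (0.0042). Depth limits the weak peaks: 19 of 142 could not be tested, and 86 of the 123 tested intervals exclude a 2-fold difference.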
